A study of Mus musculus with 14 samples.

Results

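The 23KRA experiment compared c-KIT-positive spermatogonia of mice homozygous for the 23KRA allele of Cbx2 with those of wild-type mice. Its libraries were chosen by their genotype labels, Cbx2[23KRA/23KRA] and Cbx2[+/+], and by the table of raw counts that holds them. There were 5 homozygous and 5 wild-type libraries, 10 of the 14 in the series, and the other 4 belong to an experiment on deletion of Cbx2 made with another kit. All 10 came from testes of C57BL/6J mice given no treatment, and the cells were isolated by flow cytometry for surface c-KIT. The labels' protocols mention 5 animals per group without tying an animal to a library, and 1 library was assumed to be 1 animal. The labels give no age. The allele is constitutive, so every cell of a homozygous animal carries it, including the somatic cells around the germ cells. A count of reads per gene holds no sequence, so the genotype labels could not be checked against these values. The genes described are the 14338 of 24984 symbols in the table with at least 10 counts in at least 5 of the 10 libraries.

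CBX2 is one of the chromodomain proteins that give canonical Polycomb repressive complex 1 (PRC1) its affinity for trimethylated lysine 27 of histone H3, the mark written by Polycomb repressive complex 2 (PRC2). Outside the chromodomain it has a stretch rich in lysine and arginine that compacts nucleosome arrays and drives phase separation, called the CaPS domain in the study's design, and the 23KRA allele replaces lysines and arginines of this stretch by alanine. In the testis, spermatogonia that leave the stem and progenitor pool start to make the receptor KIT in response to retinoic acid, divide several times, and then enter meiosis with the help of STRA8. The comparison asks what loss of these charged residues does to gene expression in cells at that step.

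The libraries held 14562564 to 19814511 counts in genes, and 14958 to 17330 genes had at least 1 count. In wild type 15913 ± 921 genes (SD, n = 5) were detected and in homozygotes 16284 ± 741 (SD, n = 5), a difference of 370 genes that was smaller than the spread (exact two-sided permutation test, p = 0.484; the smallest p that 5 against 5 allows is 0.00794). Libraries of the same group correlated with each other as closely as libraries of different groups, with Pearson's r across the 8929 genes with a mean of at least 10 CPM, the read count scaled to a fixed library total, of 0.939 to 0.979 within groups and 0.931 to 0.987 between them. Genes are not independent replicates, so these values describe the libraries only. In 866 genes (6.04% of those tested) 1 library had 0 counts while another had at least 50, and in the deletion experiment, with 4 libraries and another kit, this was so for 0 of 16806 genes tested. edgeR's common biological coefficient of variation was 0.40 here and 0.099 in the deletion experiment, a difference in which kit, depth and animals cannot be told apart. Wild-type replicate 3 stood apart in genes of macrophages and other leukocytes, as described with those genes, and the counts of calls, unpaired and blocked, are also given without it.

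The cells carried the marks of differentiating spermatogonia. Levels are compared between genes as CPM per kilobase of exon. Stra8 (chromosome 6, 34920163 to 34939344), which marks the retinoic acid response before meiosis, stood at 385 ± 51.4 CPM per kilobase (SD over 10 libraries), rank 48 among the 13355 protein-coding genes tested. Kit (chromosome 5, 75574916 to 75656722), the receptor used for sorting, stood at 28.7 ± 2.40 CPM per kilobase, at percentile 87.2 of them. All 15 genes listed for differentiating spermatogonia passed the filter on counts, with a median of 35.7 CPM per kilobase, against 5.27 over all genes tested. Of the 23 genes listed for undifferentiated spermatogonia 15 passed it, with a median of 1.30 CPM per kilobase. Nanos2 and Lhx1, which mark the stem cell end of that list, had at most 3 and 4 counts in any library. Uchl1 (181 CPM per kilobase) and Taf4b (43.2) led that list, and Gfra1, the receptor for the stem cell factor GDNF, stood at 0.181. Genes of meiotic prophase were already abundant: Smc1b, a meiotic cohesin subunit, reached 375 CPM per kilobase and the synaptonemal complex genes Sycp1, Sycp3 and Syce1 reached 329, 235 and 228. The proliferation marker Mki67 stood at 229, rank 104, and the median of 30 genes of the G2 and M phases was 34.6.

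Among genes annotated as protein-coding, the most abundant transcripts per kilobase were histones, chaperones and ribosomal proteins. Hist1h1a, a linker histone, led with 4189 ± 742 CPM per kilobase (SD over 10 libraries), followed by the testis histones Hist1h2ba (2618 ± 564) and Hist1h2aa (2582 ± 523). Of the 20 highest, 11 were genes of histones, among them H2afx, the variant phosphorylated at DNA breaks, at 744. The others were the cytosolic chaperones Hsp90aa1 (1055) and Hsp90ab1 (883), the calmodulin gene Calm2 (748), Ptma, which encodes prothymosin alpha (993), and the ribosomal protein genes Rplp1, Rpl19, Rpl13a, Rpl23a and Rpl36. Many histone genes are near copies of each other, and how reads that fit several places were counted is not given in the sources used here, so the split between single histone genes is uncertain. Among other RNAs, Rpph1, the RNA of ribonuclease P, took 25368 ± 6543 CPM in the wild type and 25207 ± 7562 in homozygotes (SD, n = 5 each), and Rn45s, the precursor of ribosomal RNA, took 23558 ± 3732 and 24000 ± 2864. These 2 genes together held 4.90% of all counts, and the 1000 most abundant genes held 50.4%. Malat1, a nuclear long non-coding RNA, stood at 2647 ± 188 CPM in the wild type and 2553 ± 340 in homozygotes.

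**Figure D1:**
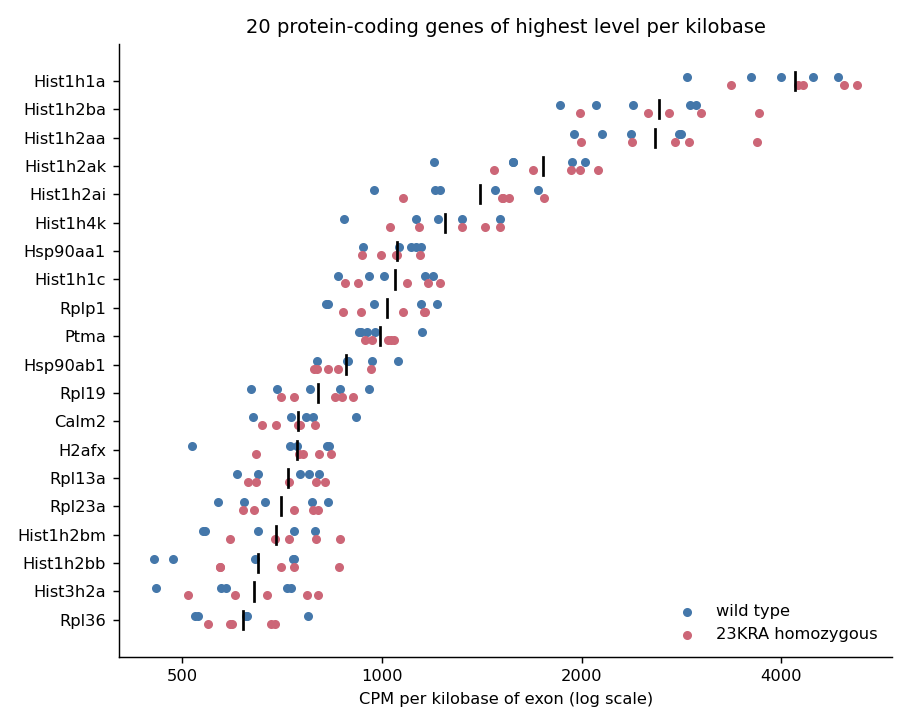
Level in CPM per kilobase of exon (log axis) of the 20 protein-coding genes of highest mean, with 1 point per library, wild type in blue, 23KRA homozygous in red and the mean over 10 libraries as a black bar. Points of the groups overlap for every gene shown, from Hist1h1a at a mean of 4189 to Rpl36 at 617.

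No gene passed the test between homozygotes and wild type when the libraries were compared without pairing. The quasi-likelihood test of edgeR, adjusted by the Benjamini-Hochberg method, called 0 of 14338 genes at an adjusted p under 0.05, which is 0% of those tested, and the smallest adjusted p was 1.00. At an unadjusted p under 0.05 there were 432 genes, where 717 would pass if p-values were uniform. DESeq2 and limma-voom also called 0 genes, with 525 and 538 genes at an unadjusted p under 0.05. Without wild-type replicate 3 the edgeR test called 0 of 14135 genes, with 406 at an unadjusted p under 0.05. Log2 fold changes, homozygous over wild type, were above 0 for 7298 genes and below 0 for 7040, with a median of 0.0037.

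Cbx2 itself (chromosome 11, 119022962 to 119031270) was present in all libraries. In wild type its levels were 80.9, 79.1, 83.4, 53.2 and 67.9 CPM in replicates 1 to 5, and in homozygotes 89.6, 57.9, 73.8, 48.8 and 50.2 CPM. The groups overlapped, and both the highest library and the 2 lowest were homozygous. Its log2 fold change was -0.19 (SE 0.16, 95% interval -0.52 to 0.15), and it did not pass the test. Its Polycomb neighbour on chromosome 11, Cbx8, had a mean of 24.7 ± 6.95 CPM in wild type (SD, n = 5) and 19.2 ± 2.71 CPM in the homozygotes (SD, n = 5). Over the 11 tested genes whose spans lie within 500 kb of Cbx2, log2 fold changes ran from -0.36 for Cbx8 to 0.56 for Sgsh, a lysosomal sulfatase at about 1 CPM, and none passed.

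Kit and Stra8 overlapped between the genotypes. Kit was 270.1, 267.4, 231.9, 245.7 and 255.4 CPM in wild-type replicates 1 to 5 and 302.9, 239.4, 267.2, 238.4 and 241.5 CPM in homozygotes. Its log2 fold change was 0.02 (SE 0.08, 95% interval -0.15 to 0.19). The highest library was homozygous replicate 1 and the lowest wild-type replicate 3. Stra8 was 683, 798, 725, 777 and 641 CPM in the wild type and 598, 818, 623, 744 and 541 CPM in homozygotes, a log2 fold change of -0.12 (SE 0.10, 95% interval -0.32 to 0.07). Stra8 was lower in the homozygote of 4 of the 5 replicate numbers, and the ranges overlapped. In the fit with replicate number as a block, described below, its log2 fold change was -0.14 (SE 0.05, 95% interval -0.24 to -0.03). That interval lay below 0, but Stra8 did not pass over all genes (edgeR adjusted p = 0.587). Kit was at 0.02 in that fit (SE 0.07, 95% interval -0.12 to 0.15).

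**Figure D2:**
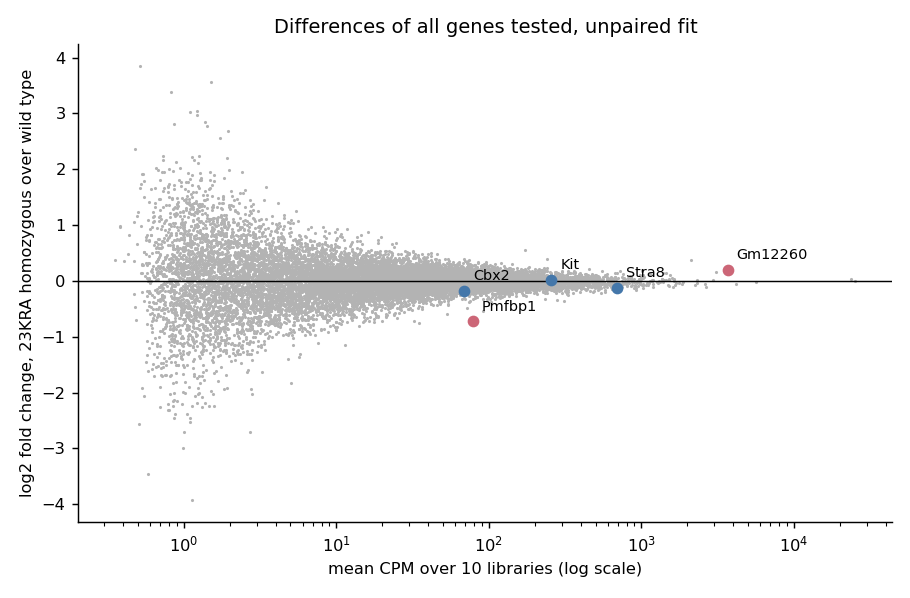
Log2 fold change of homozygous over wild type (vertical axis) against mean CPM (log axis) for the 14338 genes tested, with Kit, Stra8 and Cbx2 in blue and the 2 genes called with replicate number as a block, Pmfbp1 and Gm12260, in red. Points scatter widely below 10 CPM and lie close to 0 above 100 CPM.

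Genes whose groups did not overlap were few. All 5 homozygous libraries were above all 5 wild-type libraries in 61 genes, 0.425% of those tested, and below them in 39 genes, 0.272%. None of these genes passed the test, so their values are given as a description. If genotype made no difference, 5 against 5 libraries would separate completely, in either direction, at a rate of 0.00794 per gene. The shares in both directions together did not exceed this rate, so lack of overlap alone does not set a gene apart. Slc25a31, a germ cell ADP/ATP carrier of mitochondria, was 99.0, 118.4, 100.3, 112.9 and 103.2 CPM in the wild type and 121.7, 139.7, 127.3, 143.3 and 135.7 CPM in homozygotes (log2 fold change 0.32, SE 0.09). Med17, a core subunit of the Mediator complex, was 78.4, 83.6, 82.7, 78.0 and 89.5 CPM in the wild type and 98.0, 102.7, 111.1, 99.6 and 98.8 CPM in homozygotes (0.31, SE 0.09). Galnt11, which starts O-linked glycan chains, was 31.0, 38.5, 33.4, 38.1 and 35.4 CPM in the wild type and 52.7, 44.4, 46.5, 43.3 and 53.1 CPM in homozygotes (0.44, SE 0.13). The gaps between the groups were a few CPM in these 3 genes. Where groups do not overlap, the homozygote is necessarily higher at each replicate number, so the numbers add nothing here.

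Other genes of smallest p on the higher side were at lower levels or overlapped. Hsf4, a heat shock transcription factor, was 0.228 ± 0.162 CPM in the wild type and 2.79 ± 2.06 CPM in the homozygotes (SD, n = 5 each), with 0 counts in wild-type replicate 3 and 6.01 CPM in homozygous replicate 4. Pramef12, of the germ cell PRAME family, was 22.9 ± 3.46 and 33.2 ± 3.85 CPM, and Il18bp, which binds the cytokine IL-18, was 7.70 ± 0.664 and 13.5 ± 2.56 CPM, and neither these nor Hsf4 overlapped between groups. Mob1b (Hippo signalling), Adamts10 (an extracellular protease), Pskh1 (a kinase), Nars2 (a mitochondrial asparaginyl-tRNA synthetase), Zim2 (an imprinted gene) and Lig4 (the ligase of end joining) had log2 fold changes of 0.49 to 0.93 with overlapping groups. None of these 9 genes passed the test. Among genes with a mean of at least 10 CPM, the non-overlapping genes of largest positive log2 fold change were Il18bp (0.80), 5730507C01Rik (0.79), Slc35a1 (0.73), Col16a1 (0.70) and Pex16 (0.56).

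On the lower side, Hnrnpd, an RNA-binding protein of AU-rich elements, had the smallest p of the named genes. It was 302.8, 255.4, 254.0, 212.6 and 280.4 CPM in the wild type and 225.9, 211.9, 195.7, 201.5 and 204.5 CPM in homozygotes, which is -0.33 (SE 0.09) on the log2 scale. Wild-type replicate 4 lay within the homozygous range, and the other wild-type libraries lay above it. Mcrs1, a subunit of chromatin and centrosome complexes, was 51.5, 59.2, 41.1, 49.9 and 45.0 CPM in the wild type and 36.1, 37.8, 32.4, 38.6 and 37.2 CPM in homozygotes, with no overlap (-0.44, SE 0.13). Ctcfl, the germline paralog of the insulator protein CTCF, was 110.0, 104.3, 125.1, 103.7 and 102.8 CPM in the wild type and 90.5, 97.8, 93.3, 89.1 and 70.6 CPM in homozygotes, also with no overlap (-0.31, SE 0.10). The remaining genes of smallest p were Pabpc4 (a poly(A)-binding protein), Nefh (a neurofilament chain), Scarb1 (a lipoprotein receptor), Crim1 (a membrane protein), Rnf41 (a ubiquitin ligase), Clk3 (a splicing kinase) and Zfp553 (a zinc finger protein), with log2 fold changes of -0.66 to -0.28, and the low genes Tspan17 (a tetraspanin, 2.14 ± 2.46 and 0.128 ± 0.161 CPM) and Ano8 (an anoctamin, 4.72 ± 3.97 and 0.724 ± 0.693 CPM, SD, n = 5 each). The non-overlapping genes of most negative log2 fold change at a mean of at least 10 CPM were Zbtb39 (-0.82), 1700030C10Rik (-0.71), Zfp553 (-0.66), Stn1 (-0.65) and Zfp526 (-0.51). None passed.

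**Figure D3:**
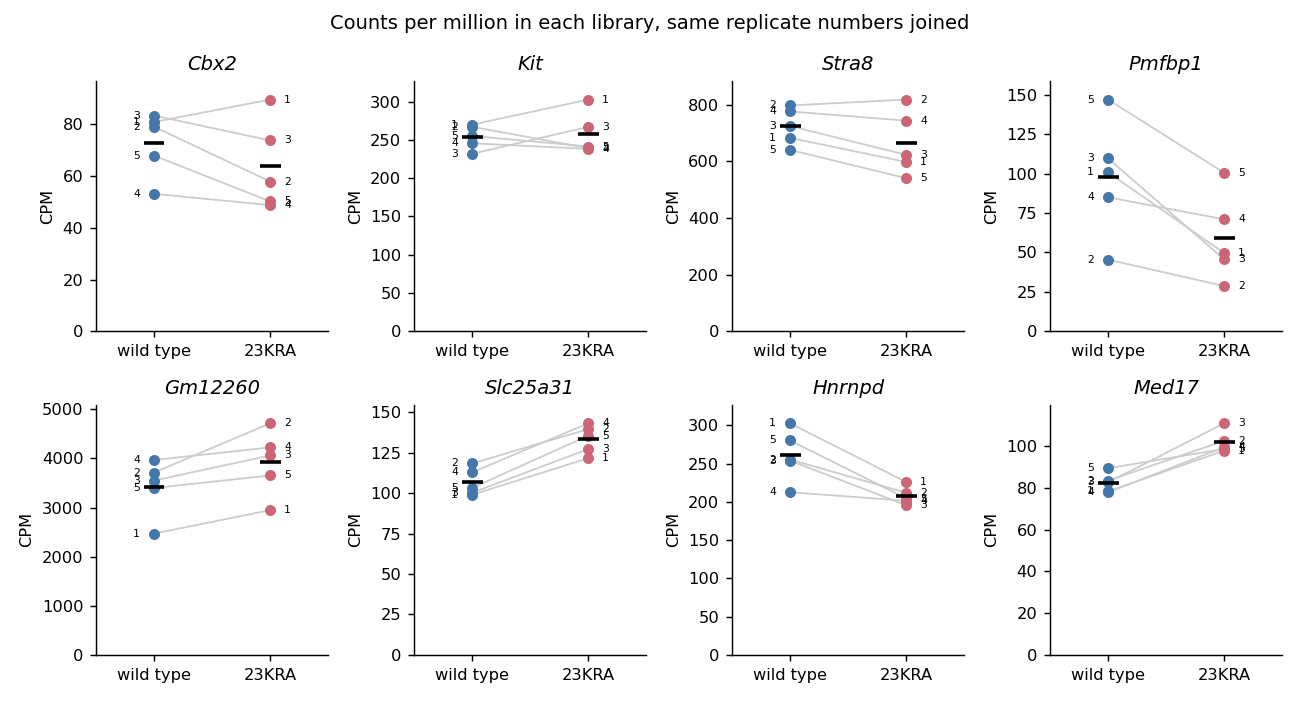
CPM in each library for Cbx2, Kit, Stra8, the genes called with replicate number as a block (Pmfbp1, Gm12260) and 3 genes of small p that did not pass (Slc25a31, Hnrnpd, Med17), with replicate numbers beside the points, lines joining equal numbers and black bars for group means. The groups separate completely for Slc25a31 and Med17, and for Pmfbp1 and Gm12260 they overlap while every line runs in the same direction.

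The replicate number was then entered as a block. The labels give the numbers 1 to 5 in both groups and do not say what a number marks. This fit, with the same edgeR test and adjustment, called 1 gene higher (0.00697% of those tested) and 1 gene lower (0.00697%) in homozygotes. At an unadjusted p under 0.05 there were 912 genes, where 717 would pass if p-values were uniform. In alternatives chosen after the data were seen, the same test called 0 genes when both libraries of number 1, 2, 3 or 5 were left out. Without number 3, which holds the wild-type library that stood apart, 0 of 13912 genes were called, with 819 at an unadjusted p under 0.05. Without numbers 1, 2 and 5 in turn, 798, 860 and 791 genes had an unadjusted p under 0.05. Without number 4 the test called 6 of 13674 genes, 3 in each direction, Pmfbp1 and Gm12260 among them (edgeR adjusted p = 0.0043 and 0.0117).

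Pmfbp1 (chromosome 8, 109494027 to 109542640), which encodes a protein of the junction between sperm head and tail, was the gene called lower. It was 100.8, 45.4, 109.6, 85.0 and 146.9 CPM in wild-type replicates 1 to 5 and 49.5, 28.7, 45.5, 71.0 and 100.4 CPM in homozygous replicates 1 to 5. The groups overlapped, and the homozygote was the lower of each equal-numbered pair. With the block its log2 fold change was -0.75 (SE 0.12, edgeR adjusted p = 0.0118), and without it -0.72 (SE 0.27, adjusted p = 1.00). Without number 3 the blocked value was -0.63 (edgeR adjusted p = 0.207), and adjusted p ran up to 0.470 when number 1 was left out. Its levels ranked the libraries much as the summed spermatid genes did: replicates 2 were lowest and replicates 5 highest in both groups and on both measures. The part of spermatid RNA in the difference was not tested.

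Gm12260 (chromosome 11, 58961812 to 58962222, plus strand), annotated in GENCODE M21 as an unprocessed pseudogene, was the gene called higher. That class was not checked here. Because of it the gene is not in the ranking of protein-coding genes, and it is not in the histone list. At 8932 CPM per kilobase its level was above that of Hist1h1a (4189). Gm12260 was 2471, 3713, 3551, 3969 and 3399 CPM in the wild type and 2948, 4717, 4063, 4227 and 3654 CPM in homozygotes. The homozygote was the higher of each equal-numbered pair, and the ranges overlapped. With the block its log2 fold change was 0.20 (SE 0.03, edgeR adjusted p = 0.0118), and without it 0.20 (SE 0.11). Without number 3 the blocked value was 0.19 (edgeR adjusted p = 0.207), and adjusted p ran up to 0.470 when number 1 was left out. It lies on the plus strand inside the annotated span of Trim17 (58954685 to 58973098), downstream of the histone gene Hist3h2a (58954685 to 58956830), and the counting rule for overlapping genes is not given in the sources used here. In an alternative chosen after the data were seen, each library's trend of log2 CPM with exon length was first removed. The trend was fitted with Gm12260 included, so part of a shift shared by short genes was subtracted with it. With the block, Gm12260 then had a log2 fold change of 0.07 and an adjusted p of 0.805, and Pmfbp1 kept -0.76 and 0.0128 (edgeR). Without number 3 as well, that fit called 0 of 13815 genes, with 810 at an unadjusted p under 0.05, and Pmfbp1 was at -0.62 (edgeR adjusted p = 0.436).

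The next genes by p in the blocked fit did not pass, and they are named here because of these values. Akap12, a scaffold of protein kinase A, came closest (log2 fold change -0.41, SE 0.08, edgeR adjusted p = 0.0536), with 344, 168, 379, 335 and 512 CPM in the wild type and 251, 126, 211, 290 and 475 CPM in homozygotes. Adjusted p ran from 0.131 to 0.217 for the next 7. The linker histone gene Hist1h1a and Rmrp, the RNA of ribonuclease MRP, were higher in the homozygote at every number, and Hnrnpd, the hexokinase gene Hk1, Cep295nl, Spz1 and Smcp were lower at every number. Smcp, a protein of the sperm mitochondrial capsule, was 94.1, 59.4, 117.3, 115.5 and 193.1 CPM in the wild type and 73.0, 24.4, 66.4, 98.9 and 184.9 CPM in homozygotes. Smcp differed more between numbers than between genotypes.

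Spermatid genes were present and varied with the library. Protamines and transition proteins pack sperm DNA and are made long after the KIT-positive stage, yet Prm2, Tnp1, Tnp2 and Prm1 stood at 315, 266, 197 and 119 CPM per kilobase. The 20 spermatid genes, all tested, summed to 1464, 858, 1893, 1763 and 2326 CPM in the wild type and 1254, 706, 1097, 1603 and 2355 CPM in homozygotes. Replicates 2 were lowest and replicates 5 highest in both groups. In 17 of the 20 the log2 fold change was below 0, against 7040 of 14338 over all genes, and the median was -0.30, against 0.0037. None passed the test. The median was -0.079 without wild-type replicate 5, -0.080 without homozygous replicate 2 and -0.18 without homozygous replicate 3, and -0.50 without wild-type replicate 2 and -0.59 without homozygous replicate 5. Prm2 ranged from 99.2 to 450.6 CPM in the wild type and from 100.5 to 462.1 CPM in homozygotes, nearly the same span. With replicate number as a block the median of the list was -0.34, and none of the 20 passed. Prm2, Tnp1, Tnp2 and Prm1 were then at -0.33 (SE 0.10), -0.10 (SE 0.10), -0.40 (SE 0.11) and -0.26 (SE 0.12). In bulk RNA, fewer cells of a type and less RNA per cell cannot be told apart.

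Short RNAs and the products of short genes lay on the higher side in homozygotes. The 57 tested genes of replication-dependent histones, whose messages lack a poly(A) tail, had log2 fold changes above 0 in 52 cases, against 7298 of 14338 over all genes, with a median of 0.17. Summed, they took 10566, 15790, 13338, 16553 and 13296 CPM in the wild type and 11995, 17943, 15397, 17043 and 14174 CPM in homozygotes. The groups overlapped, and the homozygote was higher at each of the 5 numbers. None of the 57 passed, and the median was 0.070 without wild-type replicate 1, 0.098 without homozygous replicate 2 and 0.10 without homozygous replicate 4. Of the 4 of highest level, Hist1h1a was 2935 ± 568 CPM in the wild type and 3273 ± 534 in homozygotes, Hist1h2ba 940 ± 188 and 1071 ± 244, Hist1h2aa 943 ± 152 and 1070 ± 246, and Hist1h2ak 652 ± 130 and 723 ± 101 (SD, n = 5 each).

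Small nucleolar RNAs, guides of ribosomal RNA modification and processing, had the largest positive median of the lists with more than 1 tested member. Among the 110 counted, 71 were tested, 52 of these had a log2 fold change above 0, and the median was 0.38, against 0.0037 over all genes. Snord15b was 86.4, 209.8, 73.6, 162.4 and 165.3 CPM in the wild type and 104.4, 259.8, 275.5, 178.0 and 210.3 CPM in homozygotes (log2 fold change 0.56, SE 0.24). Replicates 3 differed most, and the others differed by much less than the range within a group. The list's median was 0.22 without wild-type replicate 1 or 3, 0.23 without homozygous replicate 3 and 0.25 without homozygous replicate 2. Genes with up to 200 bases of exon, of which there were 147, had a median of 0.36, those of 501 to 1000 bases 0.055, and those over 8000 bases -0.0059. After removal of each library's trend of log2 CPM with length the medians were 0.12 for small nucleolar RNAs and 0.066 for histones. With the trend removed, the replicate number as a block and number 3 left out, they were -0.015 and 0.058. The trend was fitted with the members of both lists included, so part of their own shift was subtracted with it. The part of length in the differences was not tested.

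Genes of protein synthesis and respiration showed small differences of the same sign. Log2 fold changes were above 0 for 74 of 81 cytosolic ribosomal protein genes, with a median of 0.085, and for 69 of 86 nuclear genes of oxidative phosphorylation, with a median of 0.11. The ribosomal protein genes summed to 29682 ± 3661 CPM in the wild type and 31281 ± 3186 in homozygotes, and the respiratory genes to 7455 ± 511 and 7871 ± 508 (SD, n = 5 each). Both sums were higher in the homozygote at each of the 5 replicate numbers, and both groups overlapped. Among 45 proteasome genes 26 were above 0, with a median of 0.045. No member of these lists passed the test. Across the alternatives run, which include removal of the trend with length, the ribosomal protein median ran from 0.032 to 0.14. The oxidative phosphorylation median ran from 0.062 to 0.14 and the proteasome median from 0.018 to 0.058. The part of gene length in these differences was not tested.

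**Figure D4:**
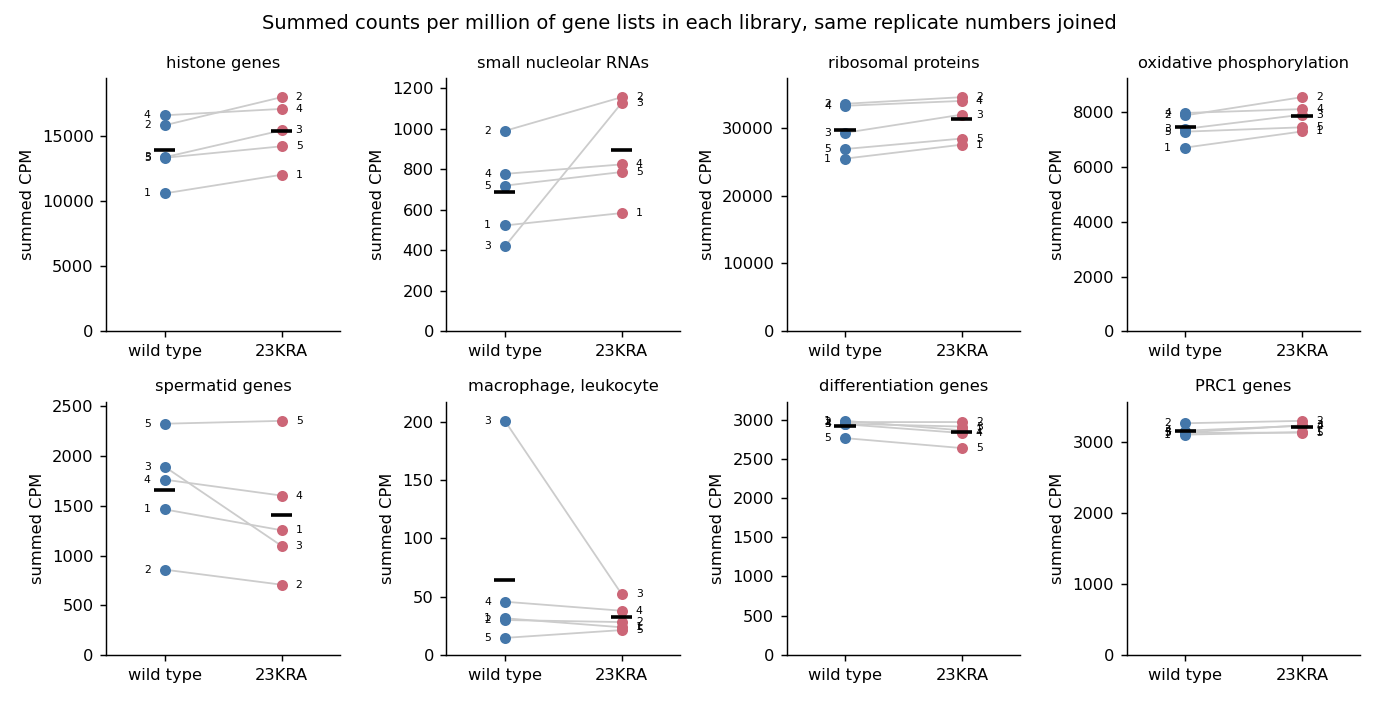
Summed CPM of 8 gene lists in each library (vertical axes from 0), with replicate numbers beside the points, lines joining equal numbers and black bars for group means. Histone, small nucleolar RNA, ribosomal protein, oxidative phosphorylation and PRC1 sums are higher in the homozygote on every line. Wild-type replicate 3 stands at 200.6 CPM for macrophage and leukocyte genes against 14.6 to 45.6 in the other wild-type libraries.

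No Polycomb gene passed the test. Of 27 tested genes of PRC1 and its partners 13 were above 0 and 14 below, with a median of -0.0026. Summed over the list, PRC1 genes took 3155 ± 62.5 CPM in the wild type and 3204 ± 70.0 in homozygotes (SD, n = 5 each). The groups overlapped, and the homozygote was higher at every replicate number. Of 12 PRC2 genes 7 were above 0, with a median of 0.0056. Scml2, a germline PRC1 partner, was the most abundant per kilobase of the first list (81.5), followed by Mga (51.0), Bmi1 (48.0) and Yaf2 (43.9), while Cbx2 stood at 16.1. Scml2 was 414, 512, 488.5, 502 and 472 CPM in the wild type and 458, 574, 530, 523 and 481 CPM in homozygotes (log2 fold change 0.10, SE 0.08). The chromobox genes Cbx7 and Cbx6, chosen after their values were seen, had the smallest p of the list, at 8.04 and 4.42 CPM for Cbx7 and 4.61 and 2.11 CPM for Cbx6 (wild-type and homozygous means), or -0.86 (SE 0.37) and -1.13 (SE 0.52) as log2 fold changes, and neither passed. The PRC2 subunit genes Suz12, Eed and Rbbp7 and the accessory gene Jarid2 had log2 fold changes of 0.0030, 0.08, 0.01 and -0.09. Of 16 genes that oppose Polycomb 6 were above 0, with a median of -0.042, and the chromatin remodeller gene Smarca4 was 678 ± 93.0 CPM in the wild type and 615 ± 63.3 in homozygotes (SD, n = 5 each).

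The Hox genes, which pattern the body axis and are classical Polycomb targets, were low in both genotypes. Of the 39 listed, 6 passed the filter on counts, and the other 33 had at most 50 counts in any library. Hoxa4, the highest of them per kilobase of exon, was 3.45 ± 2.18 CPM in the wild type and 1.96 ± 1.83 in homozygotes (SD, n = 5 each), and 2 of the 6 were above 0. At these levels the standard errors of log2 fold changes were 0.71 to 1.17, so changes smaller than several fold were not detectable. Of 64 other developmental transcription factor genes 21 were tested and 12 were above 0, with a median of 0.091. Tbx1, the highest in CPM and per kilobase, was 36.2 ± 9.81 CPM and 41.6 ± 6.34 CPM (SD, n = 5 each), and Lhx8 was 14.9 ± 2.32 and 13.2 ± 2.75. Cdkn2a, which encodes p16 and p19ARF and is a Polycomb target in many cell types, was 50.1, 70.9, 55.1, 60.7 and 58.6 CPM in the wild type and 72.0, 84.2, 67.8, 61.8 and 67.2 CPM in homozygotes. Its log2 fold change was 0.26 (SE 0.12, 95% interval from the same fit above 0, unadjusted p = 0.0454), and it did not pass over all genes. The 8 inhibitors of cyclin-dependent kinases had 6 members above 0, with a median of 0.13, and the 19 tested p53 targets had 9.

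Germ cell and cell cycle lists had medians near 0, and no member passed. The 15 differentiation genes had 5 members above 0 and a median of -0.037, and the 15 tested genes of undifferentiated cells had 9 and a median of 0.072. Among 30 genes of meiotic prophase 19 were above 0, with a median of 0.032. Smc1b was 1521, 1505, 1512, 1534 and 1449 CPM in the wild type and 1375, 1783, 1484, 1556 and 1459 CPM in homozygotes, and homozygous replicates held both the highest and the lowest value. The 42 DNA replication genes had 30 members above 0 with a median of 0.046, and the 30 genes of the G2 and M phases 17 with a median of 0.015. Mki67 was 2290, 2422, 2164, 2297 and 2288 CPM in the wild type and 2097, 2626, 2330, 2228 and 2313 CPM in homozygotes. The piRNA pathway list had 13 of 19 above 0 with a median of 0.029; Ddx4, a helicase of germ granules, was 632 ± 31.0 CPM and 611 ± 37.7 (SD, n = 5 each). Dazl, a germ cell translational regulator, was 679 ± 65.4 and 765 ± 31.7 CPM (log2 fold change 0.17, SE 0.07) and did not pass. The germline RNA-binding list had 8 of 14 above 0 with a median of 0.029, and the list of pachytene and later meiosis 5 of 13 with a median of -0.019. Of 12 DNA methylation genes 4 were above 0, with a median of -0.086.

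Genes of other testis cells were low, with 1 library apart. The macrophage and leukocyte genes summed to 31.4, 29.9, 200.6, 45.6 and 14.6 CPM in the wild type and 23.7, 28.1, 52.0, 37.9 and 21.3 CPM in homozygotes. Cd74, the invariant chain of class II antigen presentation, was 6.89, 3.53, 54.9, 13.0 and 0.736 CPM in the wild type and 5.06, 5.07, 13.7, 7.40 and 4.41 CPM in homozygotes. Wild-type replicate 3 was thus the high library, and both groups otherwise overlapped. Of 16 listed genes 7 were tested, each lay below 0, and the median log2 fold change was -1.004; without wild-type replicate 3 the median was 0.23. Immediate-early genes, which respond within minutes to stimulation or stress, were also highest in that library at 530.9 CPM, against 360.8 to 405.8 in the other wild-type libraries and 328.4 to 408.5 in homozygotes. Of 20 tested 4 were above 0, and the median was -0.21 with that library and -0.040 without it.

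The other somatic lists had low sums. Sertoli genes summed to 55.7 to 105.8 CPM in the wild type and 50.7 to 97.9 in homozygotes, peritubular myoid genes to 67.5 to 106.8 and 67.9 to 92.4, and endothelial genes to 18.2 to 24.7 and 13.6 to 24.3. The interstitial matrix genes summed to 10.8 to 43.2 and 17.0 to 24.0 CPM, and the Leydig genes to 81.3 to 104.2 and 67.3 to 82.8. At every replicate number the Leydig sum was lower in the homozygote, and the groups overlapped. The Leydig sum rested largely on Scarb1, the receptor for high-density lipoprotein (61.8 ± 8.40 CPM in the wild type and 46.4 ± 6.80 in homozygotes, SD, n = 5 each). Fdx1 was 14.8 and 12.4 CPM and Star 11.9 and 12.2 CPM (wild-type and homozygous means), and Star was not below 10.2 CPM in any library. Other members were lower: the steroid enzyme gene Cyp11a1 had at most 64 counts and Insl3 at most 15 in any library. Fshr, Lum, Tcf21, Mgp and the listed globin genes had 0 counts in all 10 libraries. This allows up to 0.151 to 0.206 CPM in a library, if every read that fits a gene was counted. How reads that fit several places were counted is not given in the sources used here. For genes with near copies, such as the globin genes, no limit follows from 0 counts. The respiratory gene Ndufs5 also had 0 counts in all 10 libraries. Log2 fold changes were above 0 for 8 of 14 tested Sertoli genes, 3 of 5 Leydig genes, 3 of 7 myoid genes, 1 of 6 endothelial genes, 1 of 3 matrix genes and the single erythroid gene tested, Alas2, and none passed. The part of any of these cells in the differences above was not tested.

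Among genes with a mean of at least 10 CPM, the 10 of largest within-group SD of log2 CPM were Cd74 and 9 genes, among them Pgk2, the germ cell phosphoglycerate kinase, Actl7a and Spata3. Pgk2 was 15.1, 3.18, 21.5, 20.2 and 34.1 CPM in the wild type and 20.5, 2.04, 14.2, 21.1 and 37.3 CPM in homozygotes. Replicates 2 were lowest and replicates 5 highest in both groups, as for the spermatid sums. Over the 2514 genes with a mean of at least 100 CPM, the first principal component of log2 CPM held 36.1% of the variance. At one end stood Snord15b, Rmrp, Snord15a, Rpph1, histone and ribosomal protein genes. The other end held Smcp, Tnp2, Akap12, Mex3d, Prm2, Hspa2, Map7d1, Ybx2, Tnp1, Cul7, Phf7, Trim28, Myh9, Limk1 and Dnmt3b. Toward that end wild-type replicate 1 scored highest (7.72), and replicates 5 scored 4.13 in the wild type and 0.035 in homozygotes. The scores thus did not rank the libraries as the spermatid sums did.

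The width of the intervals depended on level. Of the 2514 genes with a mean of at least 100 CPM, 99.6% had a 95% interval of the fold change that lay within a 1.5-fold change in either direction, and 99.9% within 2-fold. Of the 6415 genes at 10 to 100 CPM these shares were 65.5% and 95.1%, and of the 4743 genes at 1 to 10 CPM 0.0211% and 15.4%. No gene of the 666 below 1 CPM had such an interval. The median standard error of a log2 fold change was 0.092 in the highest class and 1.20 in the lowest. Intervals take the spread that edgeR shares across genes as given, and counting error is only part of that spread. For genes below 10 CPM, which include all tested Hox genes and many somatic markers, a 2-fold change was mostly not detectable with these 10 libraries.

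**Figure D5:**
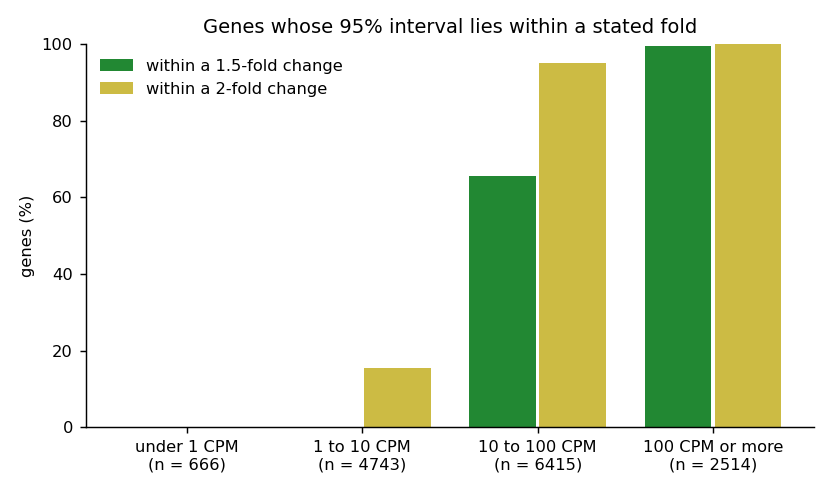
Share of genes (%) whose 95% interval of the fold change lies within 1.5-fold (green) or 2-fold (yellow) of no change, by mean CPM over 10 libraries, from edgeR's unpaired fit. Shares rise from 0 below 1 CPM to 99.6% and 99.9% at 100 CPM or more.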

How the data were processed

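c-KIT-positive spermatogonia of 5 wild-type and 5 Cbx2[23KRA/23KRA] mice were profiled by RNA sequencing. Per the labels' protocols, the kit was a total RNA kit that keeps strand and removes ribosomal cDNA, with 5 PCR cycles before that removal and 16 after it. The molecule field names polyA RNA instead. The deposited values are raw read counts per gene symbol, made by the authors on build mm10. The submitters' processing notes name STAR 2.5.3, featureCounts, Subread 1.5.0, Trim Galore 0.4.3 and SAMtools 1.4.1. The annotation, the strand setting and the rule for multiply mapped reads were not given in the sources used here.

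Genes with at least 10 counts in at least 5 of 10 libraries were tested with edgeR 4.0.16 (R 4.3.3): TMM scaling, quasi-likelihood F test, two-sided, Benjamini-Hochberg adjustment over 14338 genes, threshold 0.05. CPM use TMM-scaled library sizes. The SE is the log2 fold change divided by the square root of F. The second fit added the replicate number. Alternatives were DESeq2 1.42.0, limma 3.58.1 (voom, with and without quality weights), other scalings and filters and leaving out each library. Removal of each library's trend of log2 CPM with exon length, by an offset, and blocked fits without each number were added after the data were seen. The test was checked on simulated counts. Gene positions and exon lengths are from GENCODE M21 (GRCm38), which matched 24548 of 24984 symbols (98.3%), 29 of them by synonym.

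Named genes are Cbx2, Kit and Stra8; the 12 of smallest p in each direction with at least 1 CPM and no predicted symbol; up to 4 of highest level per kilobase in each of 30 lists; the 20 protein-coding and 8 other most abundant genes; the 10 most variable within groups; genes within 500 kb of Cbx2; and the 5 non-overlapping genes of largest change each way. Some genes that these rules take are not reported here. Others were chosen after their values were seen. The members and lists were chosen with earlier results of these data known. Lists are described by counts and medians, with no test. Libraries were assumed to be separate animals; if some are not, p-values measure in part technical spread.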

Additional observations from a re-analysis of the deposited data

Results flagged for a closer look

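In 8 of 122 groups of 5 libraries examined, 1 library lay far from the other 4 of its genotype, where chance gives about 1 in 20 groups. The macrophage and leukocyte genes summed to 200.6 CPM in wild-type replicate 3, far above the other wild-type libraries, and the immediate-early genes to 530.9 CPM in the same library. The differentiating spermatogonia genes summed to 2763 CPM in wild-type replicate 5, below the other 4, and the germline RNA-binding genes to 2737 CPM in wild-type replicate 4, above the other 4. Of single genes, Pskh1 was 25.6 CPM and Tspan17 6.51 CPM in wild-type replicate 2, each the high value, Pramef12 was 16.7 CPM in wild-type replicate 5, the low value, and Ano8 was 1.93 CPM in homozygous replicate 3, the high value. Pskh1, Tspan17, Pramef12 and Ano8 are among the genes of smallest p.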

How the results depend on the processing

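The count of genes called between homozygotes and wild type was 0 under every unpaired alternative run: other scalings, filters and tools, leaving out each library (0 in each case), leaving out the 2 libraries with the fewest genes detected, and removing the trend with length. It was 2 with the replicate block, 0 to 6 with the replicate block when 1 number was left out (6 without number 4, 0 without any other), and 1 with the replicate block and the length trend removed, or 0 when number 3 was also left out. The labels do not say what a replicate number marks. Deviations from group means of equal-numbered libraries correlated at 0.0106, 0.161, -0.00402, 0.0990 and 0.208 over 14338 genes for numbers 1 to 5, at 0.230, 0.437, -0.0417, 0.249 and 0.376 over the 8929 genes of at least 10 CPM, and at 0.557, 0.328, 0.0208, 0.597 and 0.398 over the 2514 of at least 100 CPM. In these 3 sets 3, 4 and 4 of 5 wild-type and 3, 4 and 3 of 5 homozygous libraries correlated best with their own number, a hint from the data. Number 3 stayed near 0 in each set, so the rule that every pair exceed 0.1 was not met. The difference in genes detected kept its sign and did not pass in any alternative, from 131 to 724 genes when 1 library was left out. Across alternatives, 19 of 836 medians of gene lists moved by more than the spread between libraries, and 21 of 30 lists changed sign at least once. In every alternative run, the medians of histone, ribosomal protein, oxidative phosphorylation, proteasome and DNA replication genes stayed above 0, and those of spermatid, differentiating spermatogonia, opposing Polycomb and DNA methylation genes below 0. Levels per kilobase used all exons of a gene; by longest transcript, 15 of the 20 highest coding genes were shared.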
